A study of Homo sapiens with 12 samples.

Results

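The genes described here are 43 epithelial junction and identity genes, measured in the lung cancer line PC9. They encode tight junction proteins, cadherins and EPCAM, polarity proteins, desmosome proteins, simple-epithelium keratins, splicing regulators, transcription factors, membrane serine protease components, and proteins of trafficking, lipid synthesis and anchoring. A gene entered by its annotated symbol, and its probes were kept where the detection p-value was under 0.05 on at least 3 of 12 arrays. Of the 43 genes, 41 had an annotated probe and 39 had a passing one, out of 13514 genes with a passing named probe in all. These 39 genes rest on 59 passing probes of 70 annotated for them. OCLN, a tight junction membrane protein, was detected on 0 of 12 arrays by either of its probes. ESRP2, a splicing regulator, was detected on 2 arrays and so fell just outside the threshold. TJP3 and F11R had no annotated probe. Just inside the threshold lay 1 further probe of MARVELD2 and 2 further probes of LLGL2, each detected on 3 arrays. The 39 tested genes are each given by the brightest passing probe. That probe was detected on 8 of 12 arrays for MARVELD2 and on 11 for PKP3 and GRHL1, and on all 12 for the other 36 genes.

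PC9 is a human non-small cell lung cancer line that carries an activating EGFR mutation and depends on EGFR signalling, and gefitinib inhibits the EGFR kinase. Total RNA of PC9 cells was hybridised to 12 single-colour Illumina bead arrays, with 3 arrays in each of 4 groups. The co-culture groups had MRC-5 cells, a line of human lung fibroblasts, on the other side of a porous insert. The groups were PC9 in co-culture with gefitinib, PC9 in co-culture without gefitinib, PC9 alone with gefitinib, and PC9 alone without gefitinib. The titles give the last group as a control without gefitinib and name no vehicle for it. DMSO is used here only as a short name for that group. The labels give gefitinib at 0.5 µM after 24 h, co-culture for 48 h, 1 µm insert pores and 10% FCS. The identical treatment description stands on each sample, with a PBS wash after gefitinib. The sources do not give the medium of the PC9-alone groups, a vehicle for the co-culture without gefitinib, or whether the drug remained during co-culture. The labels do not say whether the 3 samples of a group came from separate cultures, so p-values measure only the spread between these samples. The co-culture samples carry an extra title suffix that the sources do not explain, and no slide or scan label is given, so neither can be told apart from co-culture.

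Tight junctions seal the space between epithelial cells, and adherens junctions and desmosomes hold neighbouring cells together through cadherins linked to actin or to keratin filaments. CDH1 (E-cadherin), claudins and keratins are classic markers of epithelial identity. Factors of the GRHL and ELF families activate such genes, and OVOL factors repress mesenchymal genes. Factors of the SNAI and ZEB families repress epithelial genes through E-box sequences, and their activity is one route to an epithelial-to-mesenchymal transition.

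Promoter sequence was available from RefSeq (GRCh38.p14) for 23 of the 43 genes, taken as 250 bases before each gene start. The motifs searched, on both strands, were CACCTG (the E-box letters of SNAI and ZEB factors), AACNNGTT (grainyhead-like factors) and TGANTCA (AP-1). No overlaps between motifs were removed. CACCTG stood in 11 of the 23 promoters (47.8%), against 17.5% of 35116 promoters in the table. AACNNGTT stood in 1 of 23 (4.35%, in CGN), against 3% of all promoters, and TGANTCA stood in 1 of 23 (4.35%, in CLDN4), against 6.57%. The promoters of ELF3, CGN, TJP1 and LAD1 are shown as examples of promoters with a match whose genes changed below. RAB25 and AP1M2, which also changed, hold CACCTG too and are not shown. CACCTG also stood in CRB3, DSG2, DSC2, DSP and CDS1, which were called in no comparison, and in OCLN, which was not detected. CLDN1, CLDN3, CLDN7, JUP, EHF and SPINT1, which changed, hold none of the motifs searched. Capitals mark the matched letters, and the sequences read 5′ to 3′ along the strand of the gene. ELF3 lies at chr1:202010337-202010586 on the plus strand, CGN at chr1:151511137-151511386 on the plus strand, TJP1 at chr15:29969050-29969299 on the minus strand and LAD1 at chr1:201399325-201399574 on the minus strand.
ELF3: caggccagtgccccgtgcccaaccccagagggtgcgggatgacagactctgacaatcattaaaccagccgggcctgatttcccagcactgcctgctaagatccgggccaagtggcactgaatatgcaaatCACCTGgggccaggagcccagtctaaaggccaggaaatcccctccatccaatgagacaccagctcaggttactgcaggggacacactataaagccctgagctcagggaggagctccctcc
CGN: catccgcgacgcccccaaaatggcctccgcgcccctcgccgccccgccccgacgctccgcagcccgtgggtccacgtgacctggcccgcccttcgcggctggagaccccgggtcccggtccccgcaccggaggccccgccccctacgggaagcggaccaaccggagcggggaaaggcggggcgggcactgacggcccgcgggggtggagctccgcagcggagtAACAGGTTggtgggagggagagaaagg
TJP1: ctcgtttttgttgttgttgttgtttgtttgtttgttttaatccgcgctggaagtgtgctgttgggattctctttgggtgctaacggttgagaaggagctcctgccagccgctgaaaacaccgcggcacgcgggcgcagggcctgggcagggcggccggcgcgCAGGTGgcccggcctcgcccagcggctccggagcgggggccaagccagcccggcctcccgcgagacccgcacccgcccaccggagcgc
LAD1: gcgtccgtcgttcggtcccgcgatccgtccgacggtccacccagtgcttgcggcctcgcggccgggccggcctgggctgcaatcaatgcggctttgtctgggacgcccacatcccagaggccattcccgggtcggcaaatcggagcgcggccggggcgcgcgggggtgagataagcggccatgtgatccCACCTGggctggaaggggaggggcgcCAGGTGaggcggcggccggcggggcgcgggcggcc
The ELF3 match starts 120 bases before the gene start, the CGN match 27 bases, the TJP1 match 88 bases and the LAD1 matches 61 and 35 bases. A match is a description of letters and does not show that a factor binds there.

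Between 20917 and 22820 probes were above background per array, and the mean signal was 370.9 to 443.8 intensity units. The mean signal differed between groups of arrays. It was 418.7 to 443.8 in co-culture with gefitinib and 377.4 to 393.2 in PC9 alone with gefitinib, without overlap. Median signals of these groups did not overlap either, at 103.6 to 107.1 and 99.88 to 101.1. Pearson correlations between arrays of a group lay between 0.9886 and 0.9909 over the 13514 genes, which are not independent replicates. The number of arrays limits the precision. Of 16 fibroblast markers, all 16 had a probe and 9 passed. COL3A1, LUM, PDGFRB and THY1 were detected on 0 of 12 arrays. COL1A1, FBLN1, TWIST2, S100A4 and ACTA2 were detected on 12 of 12, so in PC9 alone too. COL6A3 was detected on 2 arrays of co-culture with gefitinib, 1 of co-culture without it and 0 of either PC9-alone group. Of the lung markers, NKX2-1 was detected on 0 of 12 arrays, NAPSA on 2 and SFTPB on 1, whereas EGFR, MUC1 and CEACAM6 were detected on 12 of 12. CLDN18 did not pass, with detection on 2 arrays of co-culture without gefitinib and 1 of each PC9-alone group. In bulk RNA, a change in the mix of cells and a change in RNA per cell cannot be told apart. Levels are log2 intensity, changes are log2 differences, and no probe's level is set against another's.

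**Figure D1:**
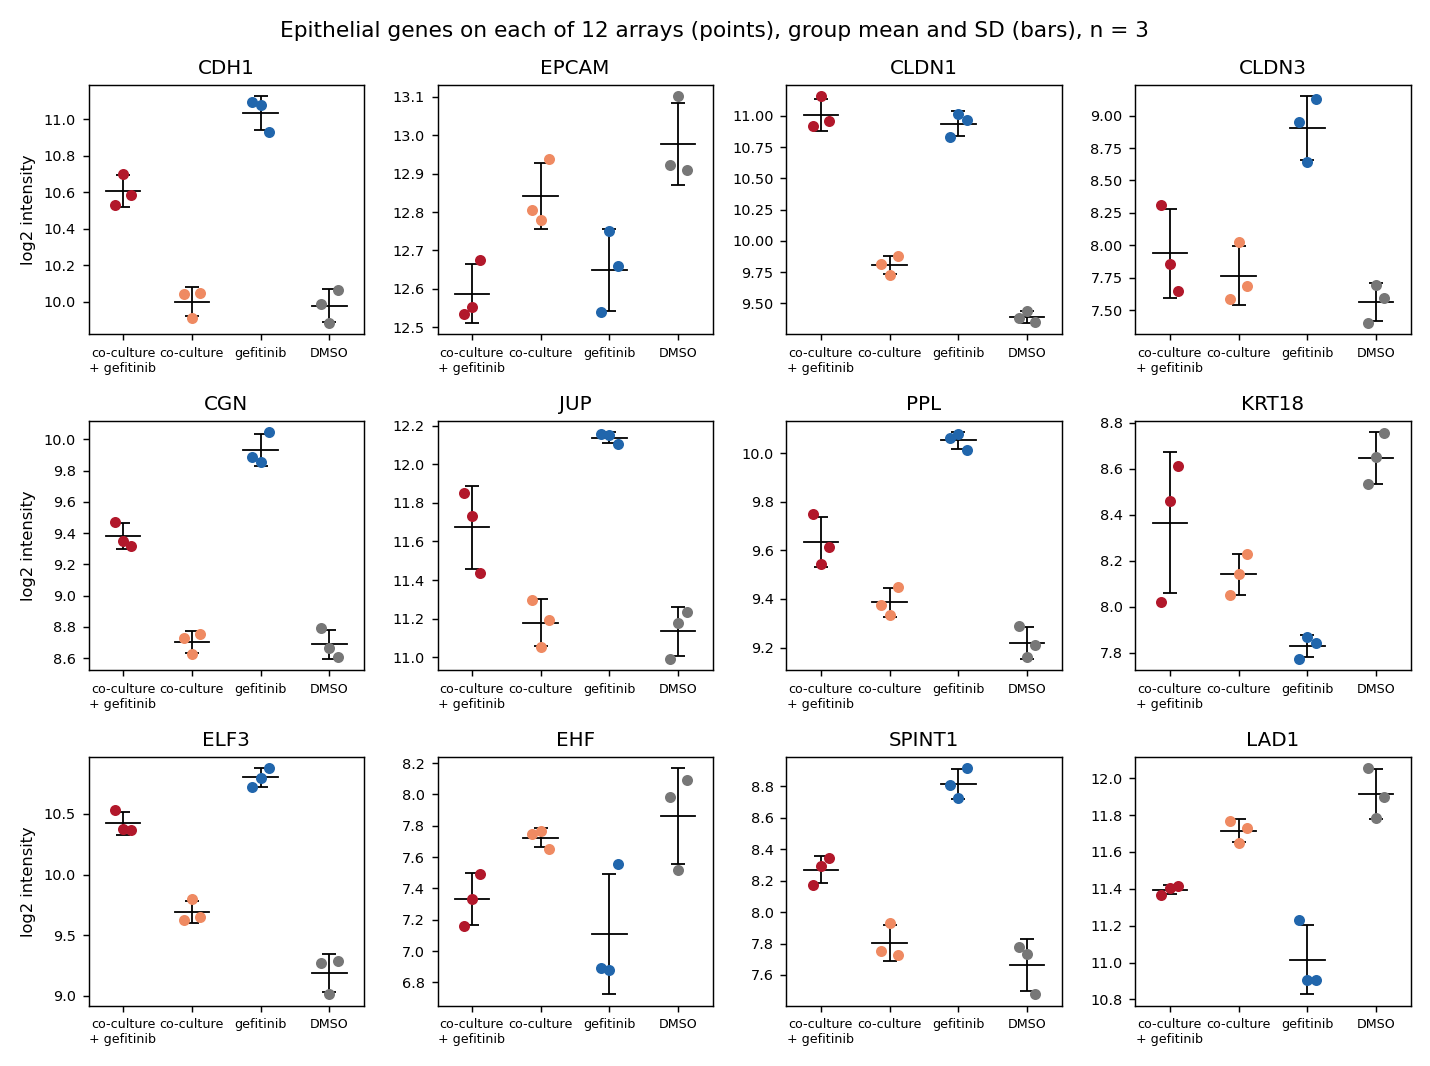
Log2 intensity of 12 epithelial genes on each array (points), with group mean and SD (bars, n = 3), for co-culture with gefitinib, co-culture, gefitinib and DMSO; each panel has its own axis. CLDN1 lies between 10.83 and 11.16 on all 6 gefitinib arrays of both cultures, and CLDN3 stands above 8.6 on the 3 gefitinib arrays of PC9 alone.

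Gefitinib in PC9 alone raised 17 of the 39 genes and lowered 4, and 18 were not called. Of all genes tested, 40.8% were called, 21.1% higher and 19.7% lower. That is 53.8% of the 39 genes called, 43.6% higher and 10.3% lower. Their median change was 0.33, against 0.00 over all 13514 genes; under median scaling of the arrays it was 0.12, against -0.12. At least 1.5-fold changes were called in 17 of the 39 genes, where 24.3% of all genes had one. The arrays of gefitinib and DMSO did not overlap for 22 of the 39 genes (56.4%), where 50% of all genes did not overlap. By role, 6 of 8 tight junction genes rose, 2 of 3 cell adhesion genes, 2 of 8 desmosome genes, 2 of 4 keratins, 2 of 5 transcription factors, 1 of 3 protease components and 2 of 4 trafficking genes. None of the 3 polarity genes and not the single splicing gene (ESRP1) was called.

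Among tight junction genes, CLDN1, a claudin of the strand, read 10.83, 11.02 and 10.96 with gefitinib, against 9.38, 9.44 and 9.35 with DMSO. The gefitinib arrays were all higher, with a change of 1.54 ± 0.10 (SE), or 2.92-fold (limma adjusted p = 2.69e-07, n = 3 each). CGN, the cytoplasmic adaptor cingulin, read 9.89, 9.86 and 10.05 with gefitinib, against 8.79, 8.67 and 8.61 with DMSO, a change of 1.24 ± 0.09. Its groups did not overlap.

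CLDN3, another strand claudin, read 8.95, 8.64 and 9.13 with gefitinib, against 7.40, 7.69 and 7.59 with DMSO, a change of 1.34 ± 0.19 with no overlap. TJP1, the scaffold ZO-1, rose by 0.64, CLDN7 by 0.62 and MARVELD3, a tetraspanning junction protein, by 0.60. The other passing probes of MARVELD3 gave 0.19 and -0.07 and were not called. CLDN4 changed by 0.16, with a 95% interval of -0.51 to 0.83, and MARVELD2 by 0.33, and neither was called.

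In the adhesion class, CDH1 read 11.09, 11.08 and 10.93 with gefitinib, against 9.99, 9.88 and 10.06 with DMSO. Every gefitinib array was higher, and the change was 1.06 ± 0.09, or 2.08-fold (limma adjusted p = 3.9e-06). CDH3, P-cadherin, read 10.12, 10.04 and 10.10 with gefitinib, against 9.25, 9.20 and 9.18 with DMSO, a rise of 0.87 ± 0.08. The 6 arrays stood in separate groups for both cadherins. EPCAM, an epithelial adhesion molecule, went the other way: it read 12.54, 12.75 and 12.66 with gefitinib, against 12.92, 13.10 and 12.91 with DMSO. The change was -0.33 ± 0.10 (limma adjusted p = 0.0175). All 3 of its passing probes were called lower, but the call was lost without DMSO replicate 2 (adjusted p = 0.06751) or gefitinib replicate 1 (0.06891).

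The desmosome class split. JUP, plakoglobin, which links desmosomal cadherins to the cytoplasmic plaque, read 12.15, 12.15 and 12.10 with gefitinib, against 10.99, 11.18 and 11.24 with DMSO. It rose by 1.00 ± 0.12, and all 3 of its probes did. PPL, periplakin, a plakin, read 10.06, 10.08 and 10.01 with gefitinib, against 9.29, 9.16 and 9.21 with DMSO, a rise of 0.83 ± 0.09 with no overlap. DSG2, DSC2, PKP2, PKP3, DSP and EVPL were not called. PKP3 read 4.56, 5.60 and 5.41 with gefitinib, against 6.53, 6.13 and 5.36 with DMSO, an overlapping difference of -0.81 ± 0.31 (limma adjusted p = 0.0521), while its other probe rose by 0.56.

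Keratins differed in direction. KRT7 read 12.79, 12.85 and 12.74 with gefitinib, against 11.96, 12.25 and 12.18 with DMSO, a rise of 0.66 ± 0.09, without overlap. KRT19 read 13.54, 13.63 and 13.59, against 13.30, 13.03 and 13.30, a rise of 0.38 ± 0.11. KRT18, the partner of KRT8 in simple epithelia, read 7.78, 7.87 and 7.84 with gefitinib, against 8.53, 8.65 and 8.76 with DMSO. That is a fall of 0.82 ± 0.14 on the log2 scale (limma adjusted p = 0.000525), and the groups did not overlap. The second passing probe of KRT18 gave -0.44 and was not called. KRT8 was not called at 0.26, with a 95% interval of -0.01 to 0.53.

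Among transcription factors, ELF3, an epithelial ETS factor, showed the highest change of the 39 genes. It read 10.72, 10.80 and 10.88 with gefitinib, against 9.27, 9.01 and 9.28 with DMSO, a rise of 1.61 ± 0.10, or 3.06-fold (limma adjusted p = 3.46e-07). GRHL2, a grainyhead-like activator, read 9.04, 9.12 and 9.13 with gefitinib, against 8.23, 8.33 and 8.43 with DMSO, a rise of 0.77 ± 0.10. EHF, an ETS factor related to ELF3, read 6.89, 6.88 and 7.55 with gefitinib, against 7.98, 7.52 and 8.09 with DMSO. It fell by 0.75 ± 0.19, although 1 gefitinib array lay above 1 DMSO array. OVOL1, a zinc finger repressor of mesenchymal genes, was not called: it read 6.14, 6.13 and 6.37 with gefitinib, against 5.66, 6.37 and 5.62 with DMSO, which overlap. GRHL1 was not called either.

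SPINT1, an inhibitor of the membrane protease ST14, read 8.81, 8.73 and 8.92 with gefitinib, against 7.78, 7.74 and 7.48 with DMSO, a rise of 1.16 ± 0.11. ST14 read 9.82, 9.73 and 9.80 with gefitinib, against 9.45, 9.68 and 9.82 with DMSO. SPINT2, a second inhibitor, read 13.21, 13.35 and 13.46, against 13.25, 13.07 and 13.07. Both overlapped and neither was called. RAB25, a GTPase of recycling endosomes, read 11.60, 11.57 and 11.62 with gefitinib, against 11.07, 11.10 and 11.04 with DMSO, a rise of 0.53. AP1M2, an epithelial sorting adaptor subunit, read 8.98, 9.08 and 8.87, against 8.48, 8.65 and 8.49, a rise of 0.44. Neither pair of groups overlapped. LAD1, ladinin, an anchoring protein, read 11.23, 10.90 and 10.91 with gefitinib, against 12.06, 11.78 and 11.90 with DMSO. It fell by 0.90 ± 0.11, while its dimmer second passing probe gave -0.06 and was not called. CDS1, a phospholipid synthesis enzyme, was not called at 0.16.

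The polarity genes PARD6B, CRB3 and LLGL2 were not called at 0.02, 0.00 and 0.39. PARD6B, of the Par complex, read 5.26, 5.14 and 5.60 with gefitinib, against 5.39, 5.10 and 5.44 with DMSO, and the groups overlapped. CRB3, of the Crumbs complex, read 8.65, 8.49 and 8.51 with gefitinib, against 8.45, 8.78 and 8.42 with DMSO. LLGL2, a Lgl polarity protein, read 5.84, 6.09 and 6.31, against 5.68, 5.85 and 5.56, also overlapping. It lay just above the threshold (limma adjusted p = 0.0528), and 1 of its other probes was called higher at 0.90. ESRP1, a splicing regulator of epithelial isoforms, read 6.62, 6.67 and 6.96 with gefitinib, against 7.18, 6.72 and 7.53 with DMSO, an overlapping difference of -0.39 ± 0.20. Under median scaling, limma no longer called CLDN7 (adjusted p = 0.08802), TJP1 (0.06708), KRT19 (0.6046), RAB25 (0.1842) and AP1M2 (0.2073). Averaging the probes of each gene ended the call of MARVELD3 (adjusted p = 0.08727), and KRT19 was also lost without DMSO replicate 2 (0.05825).

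**Figure D2:**
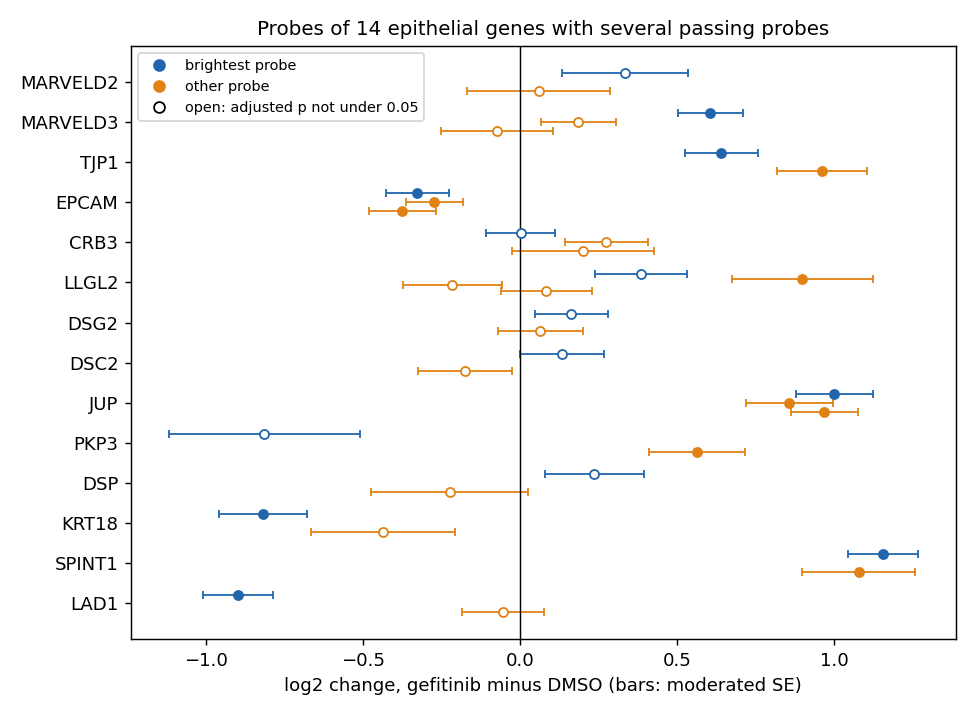
Log2 change with gefitinib in PC9 alone for each passing probe of the 14 genes with several (brightest probe blue, others orange, bars moderated SE, open symbols not called). All passing probes of 9 of the 14 genes have the same sign, and PKP3 has probes at -0.81 and 0.56.

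The same drug comparison was made in co-culture. Gefitinib raised 11 of the 39 genes and lowered 0, where 20.1% of all genes were called, 10.9% higher and 9.17% lower. Of the 39 genes, 28.2% were called. The arrays did not overlap for 24 of the 39 genes (61.5%), where 37.3% of all genes did not. Their median change was 0.17, against -0.01 over all genes. It was 0.09 without co-culture replicate 1, and 0.31, against 0.13 over all genes, under median scaling. At an unadjusted p under 0.05, limma gave 15 of the 39 higher and 3 lower, where 31.8% of all genes passed. The 11 were CLDN1, CLDN7, TJP1 and CGN of the tight junction, CDH1, CDH3, JUP, GRHL2, ELF3, SPINT1 and RAB25. No keratin and no polarity gene was called.

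CLDN1 read 10.92, 11.16 and 10.96 in co-culture with gefitinib, against 9.81, 9.73 and 9.88 in co-culture without it. The change was 1.20 ± 0.10, or 2.30-fold (limma adjusted p = 5.72e-06), with no overlap. CDH1 read 10.53, 10.70 and 10.59 with gefitinib, against 10.04, 9.91 and 10.05 without. It rose by 0.61 ± 0.09 (limma adjusted p = 0.000761). ELF3 read 10.53, 10.37 and 10.37, against 9.63, 9.80 and 9.65, a rise of 0.73 ± 0.10 with no overlap.

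CGN read 9.47, 9.35 and 9.32 in co-culture with gefitinib, against 8.73, 8.62 and 8.76 without it, a rise of 0.68 ± 0.09. JUP read 11.85, 11.73 and 11.43, against 11.29, 11.05 and 11.19, a rise of 0.49 ± 0.12. In all of these the groups stood apart.

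SPINT1 read 8.17, 8.29 and 8.34 in co-culture with gefitinib, against 7.75, 7.93 and 7.73 without it, a rise of 0.47. GRHL2 read 8.70, 8.86 and 8.92, against 8.14, 8.28 and 8.32, a rise of 0.58. CDH3 read 9.99, 10.08 and 9.87, against 9.52, 9.42 and 9.50, a rise of 0.50. TJP1 rose by 0.53, and none of these pairs of groups overlapped. RAB25 read 11.29, 11.39 and 11.36, against 11.18, 11.08 and 11.03. CLDN7 at 0.32 and RAB25 at 0.25 were the smallest called changes of the 11.

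Genes not called included CLDN3, which read 8.31, 7.85 and 7.65 with gefitinib, against 7.59, 8.02 and 7.69 without. The groups overlapped, at 0.17 with a 95% interval of -0.24 to 0.58. KRT18 read 8.02, 8.46 and 8.61, against 8.05, 8.14 and 8.23, again overlapping. EPCAM read 12.53, 12.55 and 12.67, against 12.80, 12.78 and 12.94, at -0.25 (limma adjusted p = 0.0916), with no overlap but no call. Its other passing probes were called lower, at -0.32 and -0.51 (limma adjusted p over probes = 0.0319 and 0.00618). The mean of its probes was also called lower, at -0.36 (limma adjusted p = 0.0066).

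LAD1 read 11.37, 11.40 and 11.41 in co-culture with gefitinib, against 11.77, 11.65 and 11.73 without it (-0.32, limma adjusted p = 0.0606). EHF read 7.16, 7.33 and 7.49, against 7.75, 7.77 and 7.65 (-0.39). Both were lower on every gefitinib array, and neither was called. PPL read 9.75, 9.55 and 9.61, against 9.37, 9.33 and 9.45 (0.25). KRT7 read 12.35, 12.34 and 12.31, against 12.08, 12.04 and 12.09 (0.27, limma adjusted p = 0.0591). Both were higher on every gefitinib array, without a call.

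Of the remaining genes given by array, PKP3, ESRP1, LLGL2 and CRB3 had groups that did not overlap, and none was called. KRT19 read 13.24, 13.50 and 13.39 with gefitinib, against 13.13, 13.25 and 13.33 without. AP1M2 read 8.60, 8.69 and 8.63, against 8.76, 8.64 and 8.61. Neither of these groups separated. PKP3 read 4.93, 5.37 and 5.12, against 5.83, 6.07 and 5.72, and OVOL1 read 6.29, 5.39 and 5.37, against 5.58, 6.30 and 6.82. PKP3 was lower on every gefitinib array and OVOL1 overlapped. ESRP1 read 6.38, 6.63 and 6.48, against 6.68, 7.15 and 6.73. ST14 read 9.85, 9.60 and 9.44, against 9.55, 9.69 and 9.55, and SPINT2 read 13.03, 13.13 and 13.09, against 13.13, 13.17 and 13.02. ESRP1 alone of these last 3 did not overlap. LLGL2 read 5.89, 5.99 and 5.89, against 5.37, 5.35 and 5.76, PARD6B read 5.57, 6.21 and 5.41, against 5.17, 5.64 and 5.64, and CRB3 read 8.58, 8.46 and 8.56, against 8.64, 8.72 and 8.63. LLGL2 was higher and CRB3 lower on every gefitinib array, and PARD6B overlapped.

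CLDN7, RAB25 and JUP lost their calls without single arrays: CLDN7 without co-culture replicates 2 or 3 or any of the 3 co-culture with gefitinib arrays (highest adjusted p 0.1096), RAB25 without any array but co-culture replicate 1 (0.1325), and JUP without co-culture replicate 2 (0.05283) or co-culture with gefitinib replicate 1 (0.05415). With a fold of at least 1.5 added to the rule, 4 of the 39 genes were called, where 10.4% of all genes were.

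**Figure D3:**
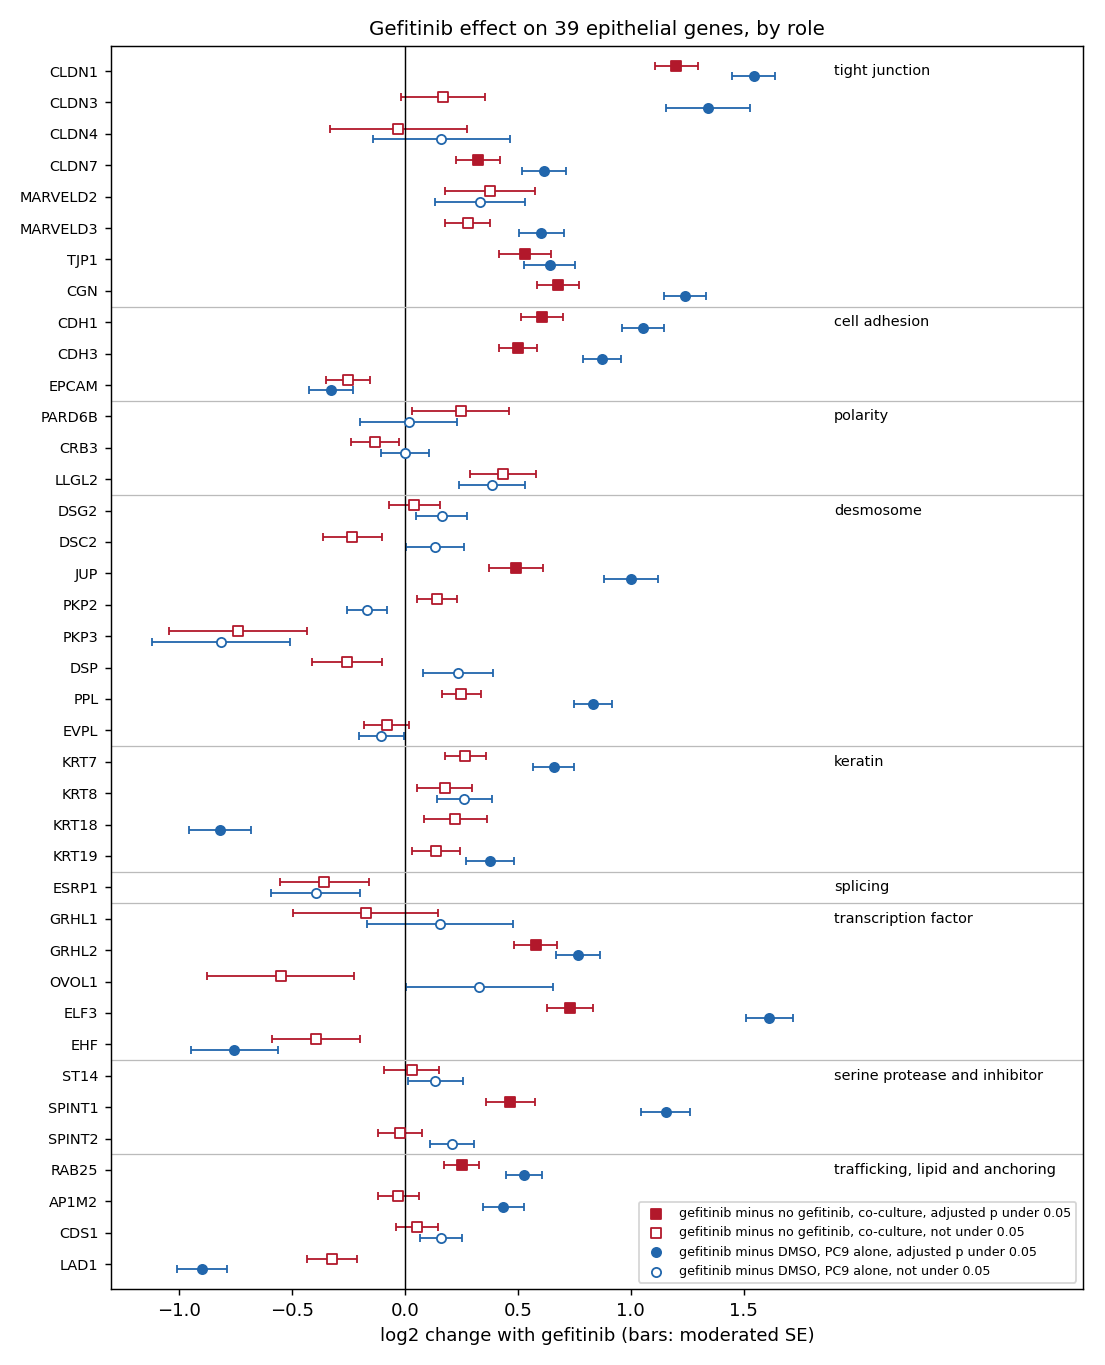
Log2 change with gefitinib of the 39 genes by role, in co-culture (red squares) and in PC9 alone (blue circles), with moderated SE bars; filled symbols are called at an adjusted p under 0.05. All 11 genes called higher in co-culture were also called higher in PC9 alone.

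All 11 genes that rose in co-culture also rose in PC9 alone, where they were 11 of 17. Of all genes, 1304 rose in both cultures, out of 1471 that rose in co-culture and 2846 in PC9 alone. In 11 of 11 the co-culture value was the smaller one, as for 84.5% of the 1304 genes, but under median scaling it was smaller in 5 and larger in 6 of the 11 (smaller for 43.7% of the 1304). Relative to the all-gene medians under that scaling it was smaller in 10 of the 11, as for 72.5% of the 1304, and TJP1 was the exception at 0.54 in co-culture and 0.51 in PC9 alone. The 18 genes called with gefitinib in neither culture included all 3 polarity genes and 6 of the 8 desmosome genes. Of the 39 tested genes, 18 were not called in PC9 alone and 28 were not called in co-culture. Of all 13514 genes, 8003 were not called in PC9 alone and 10804 were not called in co-culture. No count of all genes called in neither culture is given, so these numbers do not set the polarity or desmosome genes apart.

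The comparison of co-culture with PC9 alone was then set beside this. In co-culture without gefitinib against PC9 alone with DMSO, 0 of the 39 genes were called, where 0.355% of all genes were called in limma. At an unadjusted p under 0.05, 3 of the 39 were higher and 2 lower, where 11.8% of all genes passed. The median change was 0.03, against 0.00 over all genes. The arrays did not overlap for 9 of the 39 genes (23.1%), where 17.5% of all genes did not. The 95% intervals of the 39 genes ran from -0.81 at the lowest bound to 1.06 at the highest.

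ELF3 came closest. It read 9.63, 9.80 and 9.65 in co-culture, against 9.27, 9.01 and 9.28 with DMSO, without overlap, at 0.51 ± 0.10 (limma adjusted p = 0.0713). CLDN1 read 9.81, 9.73 and 9.88, against 9.38, 9.44 and 9.35, also without overlap (0.42, limma adjusted p = 0.107). KRT18 gave -0.51 (limma adjusted p = 0.163), and its groups did not overlap. With the authors' normalized values or without background correction, ELF3, CLDN1 and KRT18 were called, with adjusted p-values of 0.01058 to 0.04577.

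Among the gefitinib-treated samples, co-culture against PC9 alone lowered 9 of the 39 genes and raised 2. Of all genes 13.5% were called, 6.36% lower and 7.1% higher. The 39 genes had a median of -0.17, against -0.01 over all genes, and 23.1% of them were called lower. Under median scaling the sign of their median turned, to 0.05, against 0.19 over all genes. The arrays did not overlap for 17 of the 39 genes (43.6%), where 31.7% of all genes did not. With at least 1.5-fold required, 1 of the 39 was called, where 6.13% of all genes were. The 9 were CLDN3, CGN, CDH1, JUP, PPL, KRT7, ELF3, SPINT1 and AP1M2, and the 2 raised were KRT18 and LAD1. This comparison uses the same gefitinib arrays as the comparison of gefitinib with DMSO.

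CLDN3 read 8.31, 7.85 and 7.65 in co-culture with gefitinib, against 8.95, 8.64 and 9.13 in PC9 alone with gefitinib. The groups did not overlap and the change was -0.97 ± 0.19, or 1.96-fold lower (limma adjusted p = 0.00592). CGN, at 9.47, 9.35 and 9.32 against 9.89, 9.86 and 10.05, fell by 0.55 ± 0.09. SPINT1 read 8.17, 8.29 and 8.34, against 8.81, 8.73 and 8.92, also a fall of 0.55.

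CDH1 read 10.53, 10.70 and 10.59 in co-culture with gefitinib, against 11.09, 11.08 and 10.93 in PC9 alone with gefitinib. It fell by 0.43 ± 0.09, or 1.35-fold lower (limma adjusted p = 0.0112). KRT7 fell by 0.45, JUP by 0.46, PPL by 0.42, ELF3 by 0.38 and AP1M2 by 0.33. KRT18 read 8.02, 8.46 and 8.61, against 7.78, 7.87 and 7.84, a rise of 0.54 ± 0.14, while its second passing probe gave -0.31 and was not called. LAD1 rose by 0.38 ± 0.11.

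CLDN1 was not called between these groups, at 10.92, 11.16 and 10.96 against 10.83, 11.02 and 10.96. Its difference was 0.07, with a 95% interval of -0.14 to 0.28. CDH3 gave -0.11, EPCAM -0.06 and KRT8 -0.01, and none of these was called.

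The summed intensity of the 9 fibroblast markers that passed ran from 5596 to 6954 in co-culture with gefitinib, 8526 to 8668 in co-culture without it, 5552 to 7042 in PC9 alone with gefitinib and 6088 to 7559 with DMSO. S100A4, which is not particular to fibroblasts, made up 68% to 83.1% of that sum on the 12 arrays. The other 8 summed to 1595 to 1873 in co-culture with gefitinib, 1445 to 1716 in co-culture without it, 1573 to 1776 in PC9 alone with gefitinib and 1313 to 1368 with DMSO. With or without S100A4, the co-culture without gefitinib stood above the DMSO range and the co-culture with gefitinib overlapped the range of gefitinib alone. None of the 9 was called in either comparison of co-culture with PC9 alone. With gefitinib, S100A4 was called lower in co-culture, and COL1A1 (1.36), TWIST1 (0.74) and FBLN1 (0.39) were called higher in PC9 alone. The part of fibroblast RNA in the results was not tested. Median scaling left 1 of the 9 lower calls, CLDN3, and relative to the median of all genes under that scaling CDH1 gave -0.32 and CGN -0.46. Single arrays left out ended the calls of JUP, ELF3, AP1M2, KRT18 and LAD1, with highest adjusted p-values of 0.09298, 0.1043, 0.1101, 0.09366 and 0.1315, and the mean of probes ended those of KRT18 (0.7261) and LAD1 (0.1672). For JUP, ELF3 and KRT18 these were any of the 3 gefitinib arrays and co-culture with gefitinib replicates 2 and 3. For AP1M2 they were gefitinib replicates 1 and 2 and any of the 3 co-culture with gefitinib arrays, and for LAD1 any array but DMSO replicates 1 and 2 and gefitinib replicate 1.

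The difference between both gefitinib effects, co-culture minus PC9 alone, was called for 7 of the 39 genes, 5 lower and 2 higher. Of all genes, 7.27% were called, 3.34% lower and 3.94% higher, and 17.9% of the 39 were called. With at least 1.5-fold required, 4 of the 39 were called, where 6.09% of all genes were. The median of the 39 genes was -0.23, against -0.01 over all genes, and under median scaling its sign turned, to 0.14, against 0.29 over all genes. ELF3 had a difference of -0.88 ± 0.15, with a 95% interval of -1.20 to -0.56 (limma adjusted p = 0.00681). CLDN3 had -1.17 ± 0.26 (limma adjusted p = 0.0226), SPINT1 -0.69 ± 0.15, PPL -0.58 ± 0.12 and CGN -0.56 ± 0.13. KRT18 had 1.04 ± 0.19 (limma adjusted p = 0.0114) and LAD1 0.58 ± 0.15, both of them genes that fell with gefitinib in PC9 alone.

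CDH1 had a difference of -0.45, with an interval of -0.74 to -0.16, that did not pass (limma adjusted p = 0.0634), and AP1M2 missed at -0.47 (0.0532). TJP1 gave -0.11, with an interval of -0.46 to 0.24, and GRHL2 -0.19, -0.49 to 0.11. The calls of PPL, KRT18 and ELF3 stood with any 1 array left out. CLDN3, CGN, SPINT1 and LAD1 did not, with highest adjusted p-values of 0.05445, 0.06551, 0.05086 and 0.09764. For CLDN3 the arrays were DMSO 1, gefitinib 1 and 3, co-culture 2 and co-culture with gefitinib 2 and 3. For CGN they were DMSO 2 and 3, gefitinib 3, co-culture 1 and 3 and co-culture with gefitinib 2 and 3. For SPINT1 it was co-culture 2, and for LAD1 any array but DMSO 2 and gefitinib 1. Under median scaling all 5 lower calls were lost, with the sign kept, and the mean of probes ended both higher calls (adjusted p = 0.0782 for KRT18, 0.251 for LAD1) and that of SPINT1 (0.0526).

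**Figure D4:**
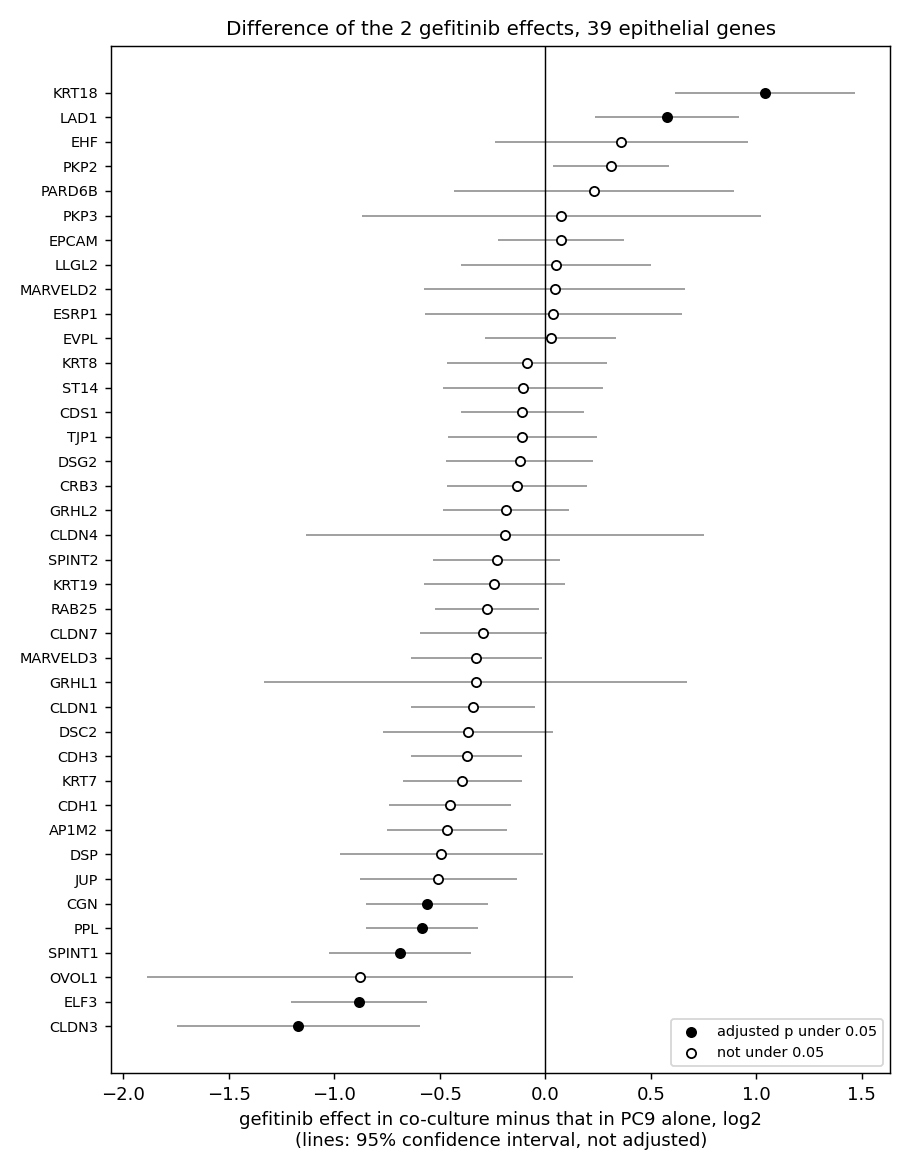
Gefitinib effect in co-culture minus that in PC9 alone, log2, with unadjusted 95% confidence intervals, for the 39 genes in order of value; filled points have an adjusted p under 0.05. KRT18 and LAD1 lie at the positive end, and CLDN3, ELF3, SPINT1, PPL and CGN are called at the negative end.

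Related genes outside the 43 were counted from lists of the same compartments. With gefitinib in PC9 alone, where 21.1% of all genes rose and 19.7% fell, 8 of 19 other tight junction genes rose and 0 fell, among them ILDR1 at 0.88, CLDN23 at 0.59, PRKCZ at 0.71 and CLDN8 at 1.09. Of 13 adherens junction genes, 7 rose and 2 fell: CDH2, N-cadherin, rose by 1.20 and CTNNB1, beta-catenin, fell by 0.84. Of 7 other keratins 4 rose, KRT16 by 1.83. KRT4 was not well above background on any DMSO array and was at least 2.47-fold higher. With gefitinib in co-culture, where 10.9% of all genes rose and 9.17% fell, these counts were 4 of 19 higher and 1 lower, 3 of 13 higher and 1 lower, and 3 of 7 higher.

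Repressors of epithelial genes moved too. Of 13 listed, 5 were measured (SNAI2, TWIST1, TWIST2, TCF3 and KLF8), with no ZEB factor among them. Of these 5, 3 rose and 1 fell with gefitinib in PC9 alone (21.1% and 19.7% of all genes). SNAI2 rose by 1.21, KLF8 by 1.56 and TWIST1 by 0.74, and TCF3 fell by 0.51. Of 13 mesenchymal genes 7 rose and 1 fell, TAGLN by 4.13, COL5A1 by 2.20 and SPARC by 1.42, and VIM, vimentin, fell by 0.92. Some repressors and mesenchymal genes, such as TWIST1 and COL1A1, are also among the fibroblast markers above, so the counts are not separate. Of 6 hemidesmosome genes 1 rose and 3 fell, and ITGA6, an integrin of that complex, fell by 2.82. With gefitinib in co-culture (10.9% higher and 9.17% lower over all genes) the counts were 2 higher and 1 lower of 5, 5 higher and 3 lower of 13, and 1 higher and 3 lower of 6.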

How the data were processed

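Total RNA of 12 PC9 samples was measured on Illumina bead arrays. The deposited table of unprocessed values holds 1 signal column per array in intensity units, not logged and not normalized between arrays by the authors, and a detection p-value per probe beside it. A second deposited table holds the authors' normalized values on a linear intensity scale, with no method stated in the labels; its columns matched their own array best for 12 of 12. Of 48107 probes, 5 lacked a value, and 48102 were processed with limma 3.58.1 in R 4.3.3: background from the detection p-values (neqc, offset 16), quantile normalization, log2. The detection filter (p-value under 0.05, 3 or more arrays) kept 25510 probes, of which 7221 had no gene and were left out. Names came from the platform annotation. The brightest probe stood for a gene, giving 13514 genes.

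Group means were fitted over all 12 arrays with lmFit and eBayes (8 residual and 3.3 prior degrees of freedom), and 5 contrasts were tested two-sided, adjusted by Benjamini-Hochberg over all genes at 0.05. The SE is moderated and pools all groups. The pipeline was tested on simulated data. The genes, lists, tests and rules were chosen with earlier results of these data known. Values on every array are given for CDH1 and EPCAM, for the genes with the smallest p per role and comparison, and for genes called in opposite directions. The labels do not say whether the replicate numbers pair the samples. Of 18 same-number pairs, 0 correlated over 0.1 in their deviations from group means. That cannot show whether such samples shared a culture or day. Alternatives were median scaling, the authors' values, skipping the background step, no filter, a stricter filter, the mean of probes, array weights, a replicate block, only the compared groups, a fold of at least 1.5 and leaving out each array.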

Additional observations from a re-analysis of the deposited data

Results flagged for a closer look

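By the test of the difference itself, the gefitinib effects in co-culture and in PC9 alone were called different in 7 of the 39 genes (17.9%). Of all genes, 7.27% were called. Of these 7 calls, 0 held under every alternative other than the fold rule. The difference is given here as the log2 effect in co-culture minus that in PC9 alone. It was -1.17 for CLDN3, -0.56 for CGN, -0.58 for PPL, -0.88 for ELF3 and -0.69 for SPINT1. It was 1.04 for KRT18 and 0.58 for LAD1. Among the related and marker genes it was -0.55 for CLDN9, -0.71 for ILDR1, 1.21 for ITGA6 and -1.21 for MUC1. Groups of 3 arrays are too small for a test of single outlying arrays.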

How the results depend on the processing

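No called gene reversed its sign under any alternative run. With gefitinib in PC9 alone, 14 of 21 calls held under every alternative other than the fold rule, in co-culture 8 of 11, in co-culture with gefitinib against gefitinib alone 1 of 11 (CLDN3), and in the difference 0 of 7. Counts among the 39 genes moved as follows. Gefitinib in co-culture, higher (11): 4 with a fold of at least 1.5; lower (0): 2 without background correction, 2 with the authors' values, 1 with the strict filter, 1 with the mean of probes, 2 with only the compared groups. Co-culture without gefitinib, higher (0): 2, 2 and 1 without background correction, with the authors' values and with the strict filter; lower (0): 1 and 1 with the first and the second. Co-culture with gefitinib, higher (2): 1 with no filter, 0 with the mean of probes, with only the compared groups or with the fold; lower (9): 1 with median scaling, 14 with normalization by the authors, 1 with the fold. Difference, higher (2): 1 with no filter, 0 with the mean of probes, 1 with the replicate block, 1 with the fold; lower (5): 9 without background correction, 0 with median scaling, 9 on the deposited normalized values, 3 with the fold. The cause was not tested. Leaving out each array in turn gave, higher and lower, 17 to 18 and 3 to 5 for gefitinib in PC9 alone, 8 to 11 and 0 to 1 in co-culture, 0 to 0 for both in co-culture without gefitinib, 0 to 2 and 6 to 9 in co-culture with gefitinib, and 1 to 2 and 3 to 5 in the difference. The replicate block left 17 higher and 4 lower in PC9 alone and 9 higher in co-culture, where CLDN7 and RAB25 lost their calls. It also ended the calls of ELF3 in co-culture with gefitinib and of LAD1 in the difference. With median scaling the all-gene median became -0.12, 0.13, -0.10, 0.19 and 0.29 in the 5 comparisons, and the share of higher among called genes was 32.96%, 83.71%, 35.29%, 91.15% and 95.08%, against 51.64%, 54.28%, 66.67%, 52.75% and 54.12%. Over all genes, median scaling gave 1642 higher for gefitinib in PC9 alone (2846), 379 lower in co-culture (1239), 1946 higher and 189 lower for co-culture with gefitinib (960 and 860) and 1586 higher and 82 lower in the difference (532 and 451). A fold of at least 1.5 gave 1753 and 1536 in PC9 alone (2846 and 2665), 882 and 529 in co-culture (1471 and 1239), and 469 and 360 for co-culture with gefitinib. Without background correction the difference gave 731 lower and with the deposited normalized values 770 (451). Single arrays moved all-gene counts by over 1.5 times: without co-culture with gefitinib replicate 3 or 2, co-culture with gefitinib gave 617 or 639 higher and 479 or 529 lower, and the difference 250 or 274 lower, with 325 higher without replicate 3 (532); without gefitinib replicate 1 there were 541 and 288 lower. Co-culture without gefitinib, 32 higher and 16 lower, ran from 3 and 0 with only the compared groups to 80 and 45 without background correction, with 9 to 19 and 2 to 7 without any 1 co-culture or DMSO array. Only 3 arrays per group and the lowest detected signal limit the precision for MARVELD2, PKP3 and GRHL1.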
